A study of Homo sapiens with 4 samples.

Results

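The 40 genes described here encode enzymes that build, interconvert and salvage nucleotides, together with the folate and methionine enzymes that supply their 1-carbon units. Members were the rows of the deposited count table whose gene symbol was on a list of such enzymes. All 40 were found among its 58219 genes, and all 40 passed the filter on low counts. By branch they comprise 14 purine genes, 7 pyrimidine genes, 2 nucleoside diphosphate kinases shared by both, 8 deoxynucleotide genes and 9 genes of the folate and methionine cycles.

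The cells were U87, an established human glioblastoma line bought from ATCC, and every group is this single line. Control cells (0 mM carnosine, 2 libraries) and carnosine cells (50 mM, 2 libraries) received fresh medium with or without the compound 24 h after seeding, and RNA was taken 24 h after that. Carnosine, a dipeptide of beta-alanine and histidine, is the only labelled difference, so the comparison shows which transcripts differ in its presence.

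Purines are assembled atom by atom on an activated ribose phosphate, whereas the pyrimidine ring is closed first and then joined to that sugar. Both routes draw on amino acids, and purine and thymidylate synthesis also draw on 1-carbon units carried by folate, which arise largely from serine. Proliferating cells, tumour cells among them, depend on these routes for RNA and DNA, and several of the enzymes are targets of antimetabolite drugs.

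Gene counts summed to between 51632970 and 71766267 per library. The labelled line was checked against marker genes. VIM and CD44 had at least 64968 counts in every library, GFAP had at most 16, and SOX2 and S100B had at most 2. The leukocyte markers PTPRC, CD68 and CD3E summed to between 22 and 54 counts, while the endothelial markers summed to 162 and 170 in controls and 407 and 279 with carnosine, most of them from PECAM1. Epithelial markers summed to between 63 and 105 counts, and neuronal markers, from SNAP25 and SYT1, to between 984 and 1963. The part of these cell markers in the results was not tested. The labels do not say whether replicates came from separate cultures, so p-values measure the spread between these libraries, which may be technical.

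Carnosine-treated cells had less mRNA for many enzymes of nucleotide synthesis. Of the 40 members, 12 fell and 0 rose at an adjusted p under 0.05 (edgeR's quasi-likelihood test, adjusted over all 16340 genes tested). Over all genes tested, 8.31% passed, 4.36% as falls and 3.95% as rises, against 12 falls and 0 rises among the 40. At an unadjusted p under 0.05 in edgeR there were 24 of the 40 members, all with log2 fold changes below 0. Of all 16340 genes tested, 4473 were under that cut in either direction. DESeq2 and limma-voom called 0 members higher. DESeq2 called 19 falls. Without control replicate 1 the count was 4, all of them among the 12, and without control replicate 2 it was also 4, with 3 of the 12 kept. The median log2 fold change of the members was -0.37, against 0.00090 over all genes tested, and 35 of 40 lay below 0. Both carnosine libraries lay below both controls for 30 members, and above them for 2. Of all genes tested 56.5% had groups that did not overlap, 28.8% lower and 27.8% higher with carnosine. Scaled counts (CPM, counts relative to the TMM-adjusted library total) summed over the members to 5591 and 5436 CPM in the controls. With carnosine the sums were 4121 CPM in replicate 1 and 4358 CPM in replicate 2. In each branch except the nucleoside diphosphate kinases, both carnosine sums lay below both control sums.

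**Figure D1:**
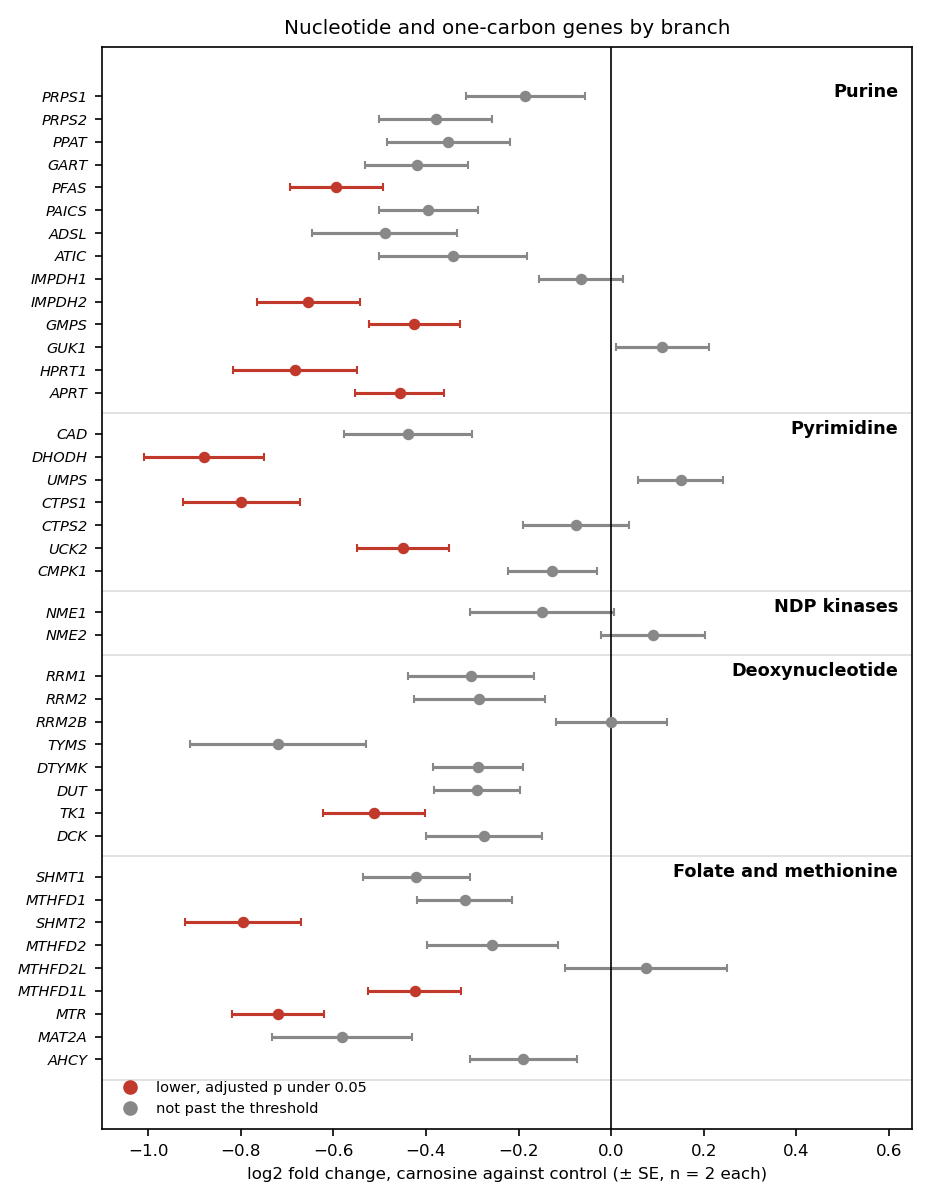
Log2 fold change of each of the 40 genes (x axis, carnosine against control) with its SE, grouped by branch, n = 2 libraries per group. The 12 genes in red fell at an adjusted p under 0.05, DHODH furthest at -0.88, and grey genes, from -0.72 for TYMS to 0.15 for UMPS, did not pass.

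Among 14 purine genes 5 fell. The other 9 did not pass, and the branch had a median log2 fold change of -0.41. Ring synthesis begins with PRPS1 and PRPS2, which activate ribose phosphate, and PPAT, which commits it to purines. GART, PFAS, PAICS, ADSL and ATIC then carry the ring to inosine monophosphate. PFAS, which adds a glutamine nitrogen, was the member of these 8 that fell. It had 139 and 137 CPM in the controls, against 87.3 and 95.4 CPM with carnosine, so the groups stood well apart. Its log2 fold change was -0.59 ± 0.10 (SE, adjusted p = 0.0219), a drop of 1.51-fold.

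The other ring genes all had log2 fold changes below 0 without passing. PAICS, a bifunctional enzyme of mid-pathway and the ring gene with the most mRNA per length, had 337 and 323 CPM in controls and 241 and 261 CPM with carnosine. Its log2 fold change was -0.40 ± 0.11 (adjusted p = 0.0671). GART, which catalyses several steps and takes a 1-carbon unit from folate, had 156 and 163 CPM against 111 and 127 CPM (-0.42 ± 0.11, adjusted p = 0.0636). In both genes the 2 groups did not overlap, which was so for 56.5% of all genes tested. ADSL, which removes fumarate, had -0.49 ± 0.16, PPAT -0.35 ± 0.13 and PRPS2 -0.38 ± 0.12 (adjusted p between 0.10037 and 0.145). Of the 7111 exonic bases of ADSL, 1344 are shared with AL022238.4 on the same strand. For ATIC, the last enzyme of the ring, carnosine replicate 1 and control replicate 2 both stood at 57.4 CPM (-0.34 ± 0.16, adjusted p = 0.223). PRPS1 had -0.19 ± 0.13 (adjusted p = 0.408) and overlapping groups.

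PPAT and PAICS lie head to head on chromosome 4 (GRCh38), PPAT on the minus strand from 56393362 to 56435615 and PAICS on the plus strand from 56435741 to 56464579. In RefSeq (GRCh38.p14) 136 bases separate the PPAT start from the upstream start of PAICS that faces it. That shared stretch is shown because both genes had similar log2 fold changes, neither past the threshold. It reads 5′ to 3′ on the plus strand, chr4:56435616-56435751, with capitals marking a GC box, the SP1 letters GGGGCGGGG, 33 to 25 bases before the PAICS start.
PPAT and PAICS: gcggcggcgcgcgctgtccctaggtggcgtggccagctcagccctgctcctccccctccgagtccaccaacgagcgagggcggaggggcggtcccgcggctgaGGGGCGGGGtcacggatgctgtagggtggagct
An E-box, the letters CACGTG that MYC and its partner MAX bind, lies outside this stretch, beginning at base 41 of the PAICS transcript.

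Guanine nucleotide synthesis held the member with the most mRNA. IMPDH2, the inducible form of the enzyme that commits inosine monophosphate to guanine nucleotides (chromosome 3, 49024325 to 49029408, GRCh38), stood at 175 CPM per kilobase of exon in the controls. Its CPM were 496 and 473 in the controls, against 293 and 323 with carnosine. It fell by 0.65 ± 0.11 on the log2 scale (SE, adjusted p = 0.0224), 1.57-fold, and remained first of the 40 per kilobase at 111. The next enzyme, GMPS, went from 199.7 and 189.8 CPM to 146 and 144 CPM and fell by 0.42 ± 0.10 (adjusted p = 0.0472). IMPDH1, the other isozyme, had 68.9 and 72.2 CPM in controls and 67.4 and 67.5 CPM with carnosine (-0.06 ± 0.09, adjusted p = 0.701). GUK1, which phosphorylates GMP, had 0.11 ± 0.10 (adjusted p = 0.529).

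Both salvage enzymes, which rebuild nucleotides from free bases, fell. HPRT1, for hypoxanthine and guanine, had 15.7 and 14.8 CPM in controls and 8.91 and 10.1 CPM with carnosine, a fall of 0.68 ± 0.13 in log2 (adjusted p = 0.0317). APRT, for adenine, had 105 CPM in both controls and 73.7 and 79.0 CPM with carnosine, a fall of 0.46 ± 0.10 (adjusted p = 0.0370). For each of these 2 genes the spread within a group was small beside the distance between the groups.

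Leaving out a library ended each of the 5 purine calls. Those of PFAS and IMPDH2 ended without either control (adjusted p from 0.0756 to 0.0928), and those of HPRT1 and APRT without either control or carnosine replicate 1 (0.0646 to 0.167). The GMPS call ended without any 1 of the 4 libraries (0.0715 to 0.255) and with scaling by total counts only (0.0561). Such a fit has fewer samples, and the log2 fold changes of these 5 genes stayed between -0.78 and -0.39.

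Pyrimidine genes held the furthest fall of all members. DHODH, the enzyme of the inner mitochondrial membrane that oxidises dihydroorotate (ENSG00000102967.11, chromosome 16, 72008588 to 72027664, GRCh38), had 14.0 and 14.3 CPM in the controls, against 7.65 and 7.72 CPM with carnosine. The 2 controls differed by 0.382 CPM and the 2 carnosine libraries by 0.0757 CPM. The log2 fold change was -0.88 ± 0.13 (SE, adjusted p = 0.0170), 1.84-fold lower, and the call held under all 12 alternative settings (adjusted p at most 0.0453). The enzymes on each side of it in the pathway did not pass. CAD, which runs the first steps, had 224 and 189 CPM against 167 and 138 CPM (-0.44 ± 0.14, adjusted p = 0.0974). UMPS, which finishes uridine monophosphate, had 62.0 and 65.6 CPM against 69.9 and 71.6 CPM. At 0.15 ± 0.09 (adjusted p = 0.347) it was the member with the highest log2 fold change.

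CTPS1, the CTP synthase associated with proliferation (ENSG00000171793.13, chromosome 1, 40979335 to 41012565, GRCh38), had 164 and 144 CPM in the controls, against 95.8 and 81.2 CPM with carnosine. The lower control stood 47.8 CPM above the higher carnosine library, and the 2 controls were 20.8 CPM apart. It fell by 0.80 ± 0.13 in log2 (adjusted p = 0.0197), 1.74-fold, and was called in all 12 alternatives (adjusted p at most 0.0436). CTPS2, the second CTP synthase, had 20.4 and 21.7 CPM against 20.9 and 19.1 CPM (-0.08 ± 0.11, adjusted p = 0.719). UCK2, a kinase that salvages uridine and cytidine, went from 133 and 129 CPM to 99.7 and 92.5 CPM (-0.45 ± 0.10, adjusted p = 0.0416). That call ended without either control, without carnosine replicate 2 and with scaling by total counts only (0.0617 to 0.192). CMPK1, the UMP and CMP kinase, had -0.13 ± 0.10 (adjusted p = 0.452). In all, 3 of 7 pyrimidine genes fell, with a median log2 fold change of -0.44.

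The 200 bases upstream of the RefSeq start of DHODH and the 100 bases upstream of a RefSeq start of CTPS1 are printed because these 2 genes fell furthest of the members. Both are on the plus strand of GRCh38.p14, at chr16:72008544-72008743 and chr1:40979596-40979695. Capitals mark an E-box in DHODH, 159 to 154 bases before the start. In CTPS1 they mark an NRF1 element 72 to 63 bases before the start used, and 2 overlapping GC boxes on the minus strand, from 54 to 41 bases before it. The GENCODE spans given above begin at 72008588 for DHODH and at 40979335 for CTPS1. By these spans, most of the printed DHODH bases and all of the CTPS1 bases lie inside the gene. The E-box straddles the beginning of the DHODH span. CTPS1 has another RefSeq start, whose window (chr1:40988269-40988568) held none of the elements searched for below.
DHODH: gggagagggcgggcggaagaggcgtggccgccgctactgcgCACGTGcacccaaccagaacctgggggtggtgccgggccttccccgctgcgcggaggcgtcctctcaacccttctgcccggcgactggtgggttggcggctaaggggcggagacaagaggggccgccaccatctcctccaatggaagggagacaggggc
CTPS1: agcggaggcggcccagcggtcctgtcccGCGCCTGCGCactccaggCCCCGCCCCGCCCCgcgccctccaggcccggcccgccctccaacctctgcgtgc
Promoter windows (250 bases before to 50 after a RefSeq start, GRCh38.p14) were found for 36 of the 40 members, and not for ADSL, IMPDH2, RRM2B and SHMT2. Both strands were searched for the elements of factors known to act on these genes, counting a gene if any of its windows held the letters. The E-box was in 8 of 36 members (22.2%), namely PPAT, PAICS, ATIC, DHODH, NME1, DCK, MTHFD1 and MTHFD1L, against 8.77% of 27305 genes. These 27305 include genes that were not tested here. The GC box was in 16 members (44.4%, against 18.5%) and the NRF1 element in 5 (13.9%, against 6.98%). PPAT and PAICS were counted for the same E-box and the same GC box, since their windows overlap. The E2F letters TTTCGCGC or TTTGGCGC were in 3 (8.33%, against 1.40%), GART, DUT and DCK, and the ATF4 letters TGATGNAA were in MTHFD1L alone (2.78%, against 4.46%). Of the 10 genes that fell and had a window, 2 held an E-box and 0 an E2F element. A GC box was in 4 of them, an NRF1 element in 2 and an ATF4 element in 1. A match is a description of letters, and no binding was measured.

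NME1 and NME2 pass phosphate to the diphosphates of all bases. Neither passed: NME1 had 162 and 191 CPM in controls and 138 and 181 CPM with carnosine (-0.15 ± 0.16, adjusted p = 0.593), and NME2 had 0.09 ± 0.11 (adjusted p = 0.659). Their groups overlapped. They share 638 and 603 exonic bases with the readthrough gene NME1-NME2, which had between 10 and 38 counts per library, so how the counting divided reads among the 3 genes is uncertain.

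Among 8 deoxynucleotide genes 1 fell. The other 7 did not pass, and the branch median was -0.29 on the log2 scale. TK1, the cytosolic thymidine kinase of dividing cells, had 187 and 171 CPM in controls and 119 and 132 CPM with carnosine, and fell by 0.51 ± 0.11 in log2 (adjusted p = 0.0392). Its call ended without either control or carnosine replicate 1 (adjusted p from 0.0774 to 0.188). TYMS, which makes thymidylate with a folate 1-carbon unit, had the larger difference but also the wider spread. It had 80.9 and 58.0 CPM in the controls, against 47.9 and 36.4 CPM with carnosine, so the groups stood apart by 10.1 CPM, less than the distance between replicates of either group. Its log2 fold change of -0.72 ± 0.19 did not pass in edgeR (adjusted p = 0.0642) and passed in DESeq2 (0.00689). Of its 2470 exonic bases, 1150 lie under exons of ENOSF1 and TYMSOS on the other strand. Whether the counting used strand was not given in any source used here.

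Ribonucleotide reductase turns ribonucleotides into deoxyribonucleotides. RRM1, its large subunit, had 310.1 and 278 CPM in controls and 214 and 263 CPM with carnosine (-0.30 ± 0.14, adjusted p = 0.207). RRM2, the small subunit of S phase, had 383 and 308 CPM against 264 and 302 CPM (-0.28 ± 0.14, adjusted p = 0.252). It shares 1077 of its 5323 exonic bases with AC007240.1 on the same strand. Carnosine replicate 2 lay just 14.6 CPM below control replicate 2 for RRM1 and 5.19 CPM below it for RRM2. RRM2B, the other small subunit, had 38.2 and 38.0 CPM against 34.4 and 41.9 CPM, and its log2 fold change was 0.00069 ± 0.12 (adjusted p = 0.998). DTYMK and DUT, enzymes of thymidylate metabolism, both had -0.29 (SE 0.10 and 0.09, adjusted p = 0.115 and 0.101). The deoxycytidine kinase DCK had -0.27 ± 0.13 (adjusted p = 0.215). For these 3 genes, both carnosine libraries lay below both controls, as they did for 28.8% of all genes tested.

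Genes of DNA replication were measured beside TK1. Of 32 such genes 26 fell and 0 rose, against 4.36% falls and 3.95% rises over all genes tested. Their median log2 fold change was -0.61, further below 0 than the -0.37 of the 40 members. Their summed level was 4169.8 and 3862 CPM in the controls, against 2734 and 2714 CPM with carnosine, with 0 of the 32 absent from every library. Of these 26 calls, 17 ended without at least 1 library. In bulk RNA, fewer cells in S phase and less of these mRNAs per cell cannot be told apart. The part of the cell cycle in the fall of TK1, and in the lower levels of the other members, was not tested.

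**Figure D2:**
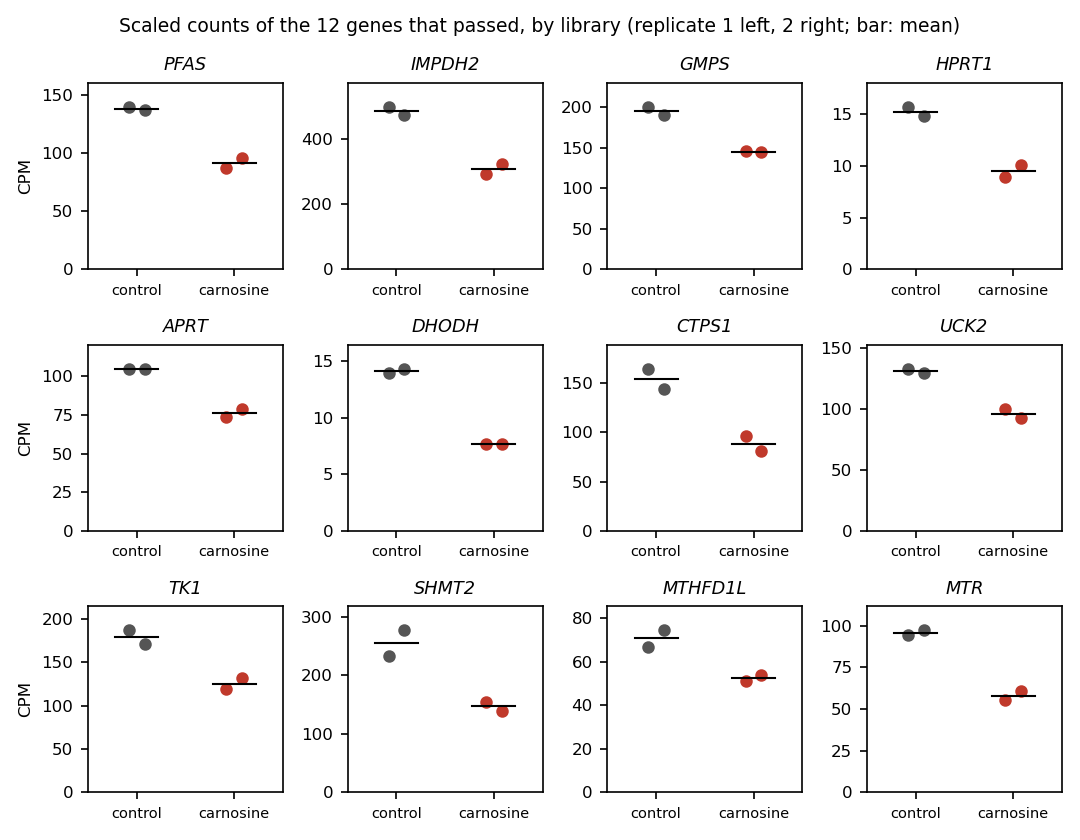
Scaled counts (CPM, y axes from 0) of the 12 genes that fell, 1 panel per gene, with 2 control libraries in grey, 2 carnosine libraries in red and the mean as a bar. In each panel both carnosine points lie below both control points, for example 7.65 and 7.72 against 14.0 and 14.3 CPM for DHODH.

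In the folate and methionine cycles 3 of 9 genes fell. The other 6 did not pass, and the branch median was -0.42 on the log2 scale. The mitochondrial arm takes the 1-carbon unit from serine, oxidises it to formate and exports it. SHMT2, its first enzyme (ENSG00000182199.10, chromosome 12, 57229327 to 57234935, GRCh38), had 233 and 277 CPM in the controls, against 154 and 139.5 CPM with carnosine. The fall of 0.80 ± 0.13 in log2 (adjusted p = 0.0197) was 1.74-fold, and its call ended without control replicate 2 (0.0663). Exons of NDUFA4L2 and AC137834.2 on the opposite strand cover 460 of its 4838 exonic bases. MTHFD1L, which releases formate at the end of the arm, had 67.0 and 74.5 CPM against 51.3 and 54.0 CPM and fell by 0.42 ± 0.10. At an adjusted p of 0.0490 it was nearest the threshold of the 12, and its call ended in limma-voom, with upper-quartile scaling, with total counts only and without any 1 of the 4 libraries (0.0525 to 0.287).

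Between SHMT2 and MTHFD1L in the arm, the dehydrogenases MTHFD2 and MTHFD2L did not pass. MTHFD2, the form of embryonic and tumour cells, had 105 and 129.9 CPM in controls and 89.9 and 106 CPM with carnosine (-0.26 ± 0.14, adjusted p = 0.295), and the groups overlapped. MTHFD2L had 12.5 and 14.1 CPM against 11.9 and 16.2 CPM (0.08 ± 0.17, adjusted p = 0.829). In the cytosolic arm SHMT1 had -0.42 ± 0.12 (adjusted p = 0.0703) and MTHFD1, which runs the reverse series of reactions there, -0.32 ± 0.10 (adjusted p = 0.104). Both carnosine libraries lay below both controls for SHMT1 and MTHFD1, as they did for 28.8% of all genes tested.

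MTR, the vitamin B12-dependent methionine synthase that joins the folate and methionine cycles (ENSG00000116984.12, chromosome 1, 236795281 to 236903981, GRCh38), had 94.2 and 97.3 CPM in the controls, against 55.4 and 60.9 CPM with carnosine. Replicates differed by at most 5.55 CPM, and the groups were 33.3 CPM apart at their closest. It fell by 0.72 ± 0.10 in log2 (adjusted p = 0.0158), 1.65-fold, and was called under all 12 alternatives (adjusted p at most 0.0352). MAT2A, which turns methionine into S-adenosylmethionine, had 201 and 194 CPM against 151 and 113 CPM. Its log2 fold change of -0.58 ± 0.15 did not pass (adjusted p = 0.0612), with carnosine replicate 2 the lowest library, and it passed in DESeq2 (0.00740). AHCY, which clears S-adenosylhomocysteine, had -0.19 ± 0.12 (adjusted p = 0.344).

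Several steps are served by paralogs, and the ratio of their counts within a library is free of the scaling between libraries. The ratios of 8 pairs were compared by an exact two-sided permutation test over the 4 libraries, which cannot go below p = 0.333. The log2 ratio of CTPS1 to CTPS2 was 3.01 and 2.72 in control libraries and 2.20 and 2.09 with carnosine, a difference of -0.72 (exact permutation p = 0.333, adjusted over the pairs 0.381). That of IMPDH1 to IMPDH2 was -2.85 and -2.71 in control libraries and -2.12 and -2.26 with carnosine, a difference of 0.59 (same p). In these 2 pairs the distance between the groups exceeded the spread within both of them. SHMT2 to SHMT1 differed by -0.37, MTHFD2 to MTHFD2L by -0.32, RRM2 to RRM2B by -0.27, PRPS1 to PRPS2 by 0.20 and MTHFD1L to MTHFD1 by -0.11, all without overlap and with the same p. For these 5 pairs the gap between the groups was smaller than the distance between the 2 libraries of at least 1 group. The groups overlapped for NME1 to NME2 (exact permutation p = 0.667).

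**Figure D3:**
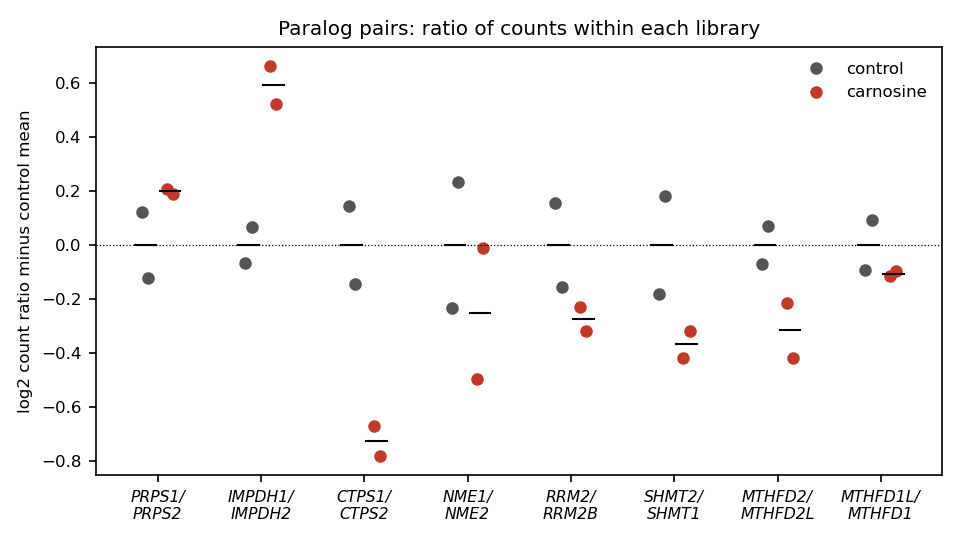
Log2 ratio of the counts of each paralog pair within a library, less the mean of the 2 controls (y axis), for control (grey) and carnosine (red) libraries with group means as bars. The CTPS1 to CTPS2 ratio was 0.72 lower and the IMPDH1 to IMPDH2 ratio 0.59 higher with carnosine, while NME1 to NME2 overlapped.

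Per kilobase of exon, levels in the controls ran from 175 CPM for IMPDH2 down to 1.36 CPM for MTHFD2L. TK1 (96.1), AHCY (86.9), RRM1 (70.4), DTYMK (68.5) and RRM2 (64.9) followed IMPDH2. With carnosine the 6 highest were the same genes, with AHCY (76.2) ahead of TK1 (67.4). Among the controls, the ranges of RRM1, DTYMK and RRM2 overlapped. TYMS moved from place 15 to 21, and SHMT2 from 8 to 11. DHODH and MTHFD2L held the last 2 places and exchanged them, at 1.11 and 1.43 CPM per kilobase with carnosine. Exon lengths join all annotated transcripts of a gene, so values per kilobase are low for genes with many long unused exons.

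Other genes of the same pathways went both ways. Of 54 tested genes 7 fell (13.0%), 5 rose and 42 did not pass. Over all genes tested, 4.36% passed as falls and 3.95% as rises. The median of the 54 was -0.16 on the log2 scale. With scaling by total counts only, 4 fell and 5 rose. Among folate genes FPGS, which adds the glutamate tail that keeps folate in the cell, fell by 0.94 ± 0.09 on the log2 scale, from 99.0 and 93.9 CPM to 50.3 and 50.1 CPM (adjusted p = 0.00939).

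Among other deoxynucleotide genes, SAMHD1, which breaks down deoxynucleoside triphosphates, rose by 0.67 ± 0.11 on the log2 scale, from 45.3 and 38.4 CPM to 65.5 and 67.2 CPM (adjusted p = 0.0215). TK2, the mitochondrial thymidine kinase, rose by 0.47 ± 0.09 (adjusted p = 0.0328), and DCTPP1, a dCTP pyrophosphatase, fell by 0.83 ± 0.09 (adjusted p = 0.0113). TK1 and TK2, the cytosolic and mitochondrial kinases, therefore went opposite ways. In the other purine genes PNP, a nucleoside phosphorylase of salvage, fell by 0.69 ± 0.11, and ITPA and the adenosine kinase ADK fell by 0.45 ± 0.11 and 0.44 ± 0.09. The adenylate kinase AK1 rose by 0.49 ± 0.11 (adjusted p of these 4 from 0.0197 to 0.0478).

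AMD1, which directs S-adenosylmethionine to polyamines, rose by 0.77 ± 0.13 in log2 (adjusted p = 0.0204), and PHGDH, the first enzyme of serine synthesis, fell by 0.76 ± 0.18 (adjusted p = 0.0490). The PHGDH call ended with RLE factors (0.0515), upper-quartile factors (0.0544), total counts only (0.0793) and without either control (0.0782 and 0.0812). Of 8 tested genes of pyrimidine salvage and breakdown, 0 passed in edgeR, DESeq2 or limma-voom, and 2 had an unadjusted p under 0.05 in edgeR. UCK1, the uridine and cytidine kinase with the most counts among them, had 0.06 ± 0.10. Of 10 tested transcription factors known to act on these pathways, 0 passed in edgeR or limma-voom, 1 passed in DESeq2 and 3 had an unadjusted p under 0.05 in edgeR. ATF4, the member of that list with the most counts, had 0.26 ± 0.17. Of all 16340 genes tested in edgeR, 4473 had an unadjusted p under 0.05, so these 2 of 8 and 3 of 10 are to be read beside that count. Of the 12 other pathway genes that passed, 3 were called without each library in turn, FPGS and DCTPP1 among them. The other 9 calls ended without at least 1 library, with adjusted p up to 0.244 for ITPA. The ITPA call also ended in limma-voom (0.0510), with upper-quartile factors (0.0548) and with total counts only (0.0647), and that of ADK with total counts only.

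**Figure D4:**
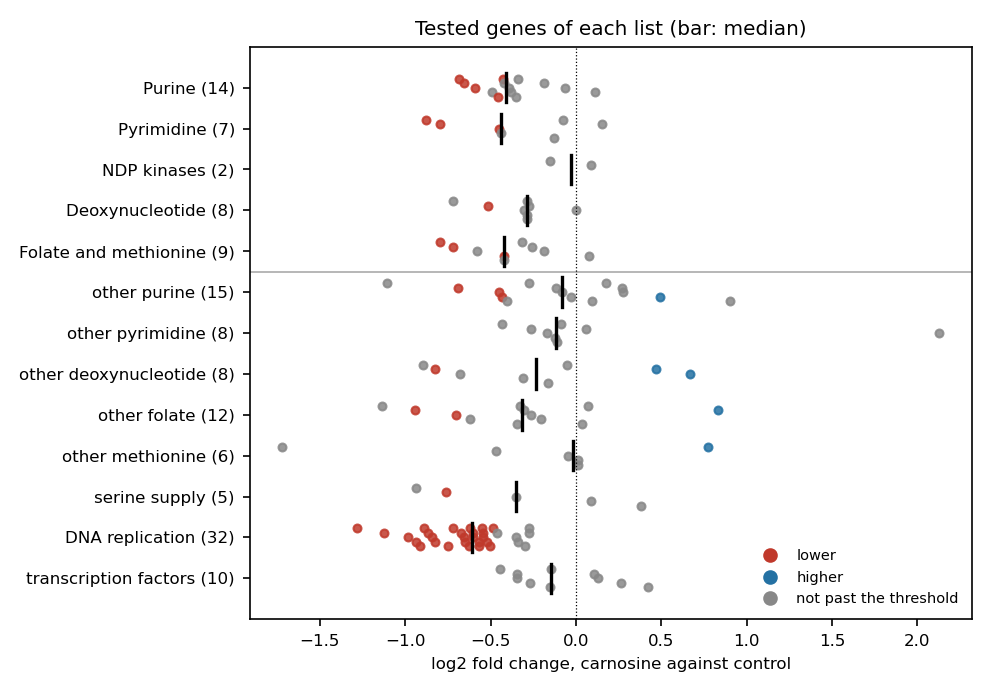
Log2 fold change (x axis) of each tested gene in the branches of the 40 members (above the line) and in other lists (below it), with the number of genes in brackets and the median as a bar. The medians of the 4 larger branches lie between -0.44 and -0.29, that of DNA replication at -0.61, and rises past the threshold (blue) appear in the lists of other purine, deoxynucleotide, folate and methionine genes.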

How the data were processed

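The data were stranded total RNA libraries of U87 cells after depletion of ribosomal RNA, 2 per group, per the labels' protocols. The deposited values are the authors' raw counts, one whole number for each gene and library. The tools listed in the submitters' processing notes are HISAT2 2.1.0, HTSeq 0.6.1 and bcl2fastq 2.17.0, with the build hg38. For the annotation release, the strand setting and reads with several matches, no setting was given in the sources used here. There were 0 columns of other samples.

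Genes were kept by edgeR's filterByExpr (minimum count 10 in 2 libraries, total 15), which left 16340 of 58219. Libraries were scaled by TMM (factors 0.976 to 1.04). The test was edgeR 4.0.16's quasi-likelihood F test in R 4.3.3, two-sided, group as the only term and 2 residual degrees of freedom. Benjamini-Hochberg adjustment ran over all genes tested, with a threshold of 0.05. The SE is the absolute log2 fold change divided by the square root of F. DESeq2 1.42.0, limma-voom (limma 3.58.1), other scalings and filters, a replicate block and leaving out each library were alternatives. The fits were tested on simulated data, where edgeR recovered 37.5% of 1.5-fold changes, 83.9% of 2-fold and 100% of 4-fold changes. A gene that did not pass may therefore still differ by a small fold. The chi-square between replicates was 36.6 (control) and 57.6 (carnosine) times its degrees of freedom, above sampling noise in both groups.

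Positions and exon lengths come from GENCODE 29 (GRCh38) by identifier, promoter windows from RefSeq (GRCh38.p14). For PRPS1, IMPDH1, CTPS1, UCK2 and RRM2 the identifier's version differed from that in the count table. Their exon lengths and shared bases may therefore differ from those of the genes as counted. Paralog ratios used counts plus 0.5. Members, lists and tests were chosen with earlier results of these data known. All 40 members are named. Of each other list, up to 4 genes that passed are named, or the 1 with the most counts. The markers, MTAP, ALDH1L2, PSAT1, PSPH, MTFMT and GCSH fall outside that rule, and their values were known when they were chosen. Some genes of the other lists are not reported here.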

Additional observations from a re-analysis of the deposited data

How the results depend on the processing

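The 12 falls were 19 in DESeq2, 9 when scaled by total counts only (UCK2, GMPS and MTHFD1L lost), 22 with no filter on low counts and between 4 and 13 with 1 library left out. Over all genes, 713 lower and 645 higher became 1178 and 1033 in DESeq2, and 1631 and 1514 with no filter. With 1 library left out they ranged from 270 to 866 and from 235 to 729. For the other pathway genes, 7 lower became 11 in DESeq2, 16 with no filter and 4 when scaled by total counts only. With 1 library left out, 2 to 9 were lower and 1 to 4 higher. Fits without a library have fewer samples, and otherwise the cause was not tested. The titles number the replicates without saying that numbers pair samples, and the deviations of same-numbered libraries correlated at 0.31 across genes. With the replicate number as a block 29 members fell, 2996 genes were lower and 2771 higher, and 19 and 9 of the other pathway genes. DHODH, CTPS1 and MTR passed in all 12 alternatives, and 34 of 40 log2 fold changes stayed below 0. That of RRM2B turned to -0.0098 in limma-voom, -0.0020 with no filter and -0.0063 with the replicate block. Without control replicates 1 and 2 it was -0.00082 and -0.0057, and between -0.15 and 0.13 without a carnosine library. With 1 library left out MTHFD2L ranged from -0.17 to 0.28 (-0.013 without control replicate 1), NME1 from -0.36 to 0.032 and NME2 from -0.024 to 0.21, NME1 above 0 without carnosine replicate 1 and NME2 below 0 without control replicate 2. Paralog differences kept their sign without each library and with a pseudocount of 5. Every member had at least 389 counts in each library, and 2 libraries per group limit the precision.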

Other observations

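MTAP, the phosphorylase that returns adenine and methionine from a by-product of polyamine synthesis, had 0 counts in all 4 libraries. With a floor set at 3 counts, this corresponds to at most 0.0596 CPM in any of them. The floor is a chosen setting and not a strict maximum. APRT, which takes up the adenine that MTAP would release, was counted at 105 CPM in both controls.

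For 3 genes outside the 40, chosen with their values known, the 2 carnosine libraries differed from each other. Among other genes of the same lists, the carnosine libraries were close for some, PSPH at 35.6 and 37.4 CPM and MTFMT at 10.1 and 9.35 CPM. They were further apart for others, such as GCSH at 4.52 and 6.75 CPM. ALDH1L2, which oxidises formyl folate in mitochondria, had 1160 counts in carnosine replicate 1 and 438 in replicate 2, against 2021 and 1950 in the controls, and did not pass (-1.13 ± 0.33, adjusted p = 0.0781). PSAT1, the second enzyme of serine synthesis, had 7103 and 3220 counts with carnosine against 9371 and 12750 in the controls, whose CPM were 132 and 217 (-0.94 ± 0.32, adjusted p = 0.117). For PHGDH the carnosine libraries had 229 and 156 CPM. SHMT2, by contrast, had 154 and 139.5 CPM in them.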
